A study of Mus musculus with 6 samples.

Results

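The chromatin around 36 genes of sterol and fatty acid synthesis was described in S1 proximal tubules, the first tubule segment after the glomerulus, of mouse kidney. The genes were chosen by name, and fell into 5 regulators, 18 enzymes of sterol synthesis, 7 genes of fatty acid synthesis, 4 genes of sterol uptake and transfer and 2 genes of sterol export and storage. They are 36 of the 21911 protein-coding genes of the annotation. Each library held chromatin of 3 hand-dissected tubules from wild-type (WT) male C57BL/6 mice (Taconic), aged 7 weeks and housed singly. Tubules came from mice 24 h after a sham operation, called Sham (3 libraries), or after unilateral nephrectomy, the surgical excision of a single kidney, called UNx (3 libraries). No allele, drug or diet separated the groups, and the sources used here do not tie a library to a mouse. The p-values therefore measure the spread between these libraries, which may be technical.

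ATAC-seq marks open chromatin, because a transposase inserts sequencing adapters where DNA is not wrapped in nucleosomes. The authors deposited a separate peak list for each library, with 77355 to 100999 peaks, the shortest being that of Sham 2. The lowest median −log10 q of a list was 12.1, also in Sham 2, the highest was 26.5, in UNx 3, and read depth is unknown. Peaks were therefore ranked by −log10 q among the 77355 strongest of each list, as percentiles. In these, 100 is the strongest and 0 means absent from those 77355. A peak absent in this sense can still be in the full deposited list. A rank is a place in a list, not a quantity of open chromatin, and near 100 it leaves little room to rise. Promoters of the 7 S1 markers (Slc5a2, Slc34a1, Lrp2, Cubn, Hnf4a, Slc5a12 and Gatm) were in all 6 lists with mean ranks of 80.3 to 94.5. Cubn and Lrp2 ranked lower in every UNx library than in any Sham library, with means of 90.8 and 96.2 in Sham and 84.2 and 92.8 in UNx. The groups overlapped for the other S1 markers. None of the 3 immune or 3 fat markers had a promoter region, and the 3 endothelial markers had mean ranks of 2.04 to 3.60. Among markers of other nephron segments, 4 of 6 had a promoter region, and Slc12a3 and Aqp2 had none. The summed rank of these markers was 268 to 290 in Sham and 237 to 263 in UNx, lower in every UNx library. The summed rank of the endothelial markers was 4.92 to 28.2 in Sham and 0 to 4.39 in UNx, and that of the stromal markers, all from Col1a1, was 68.9 to 69.4 and 54.1 to 66.1. The Slc12a1 promoter, of the thick ascending limb, had a mean rank of 56.9 ± 4.01 (SD, n = 3) in Sham and 30.2 ± 9.70 (n = 3) in UNx, whereas Umod of the same segment had 65.4 ± 0.624 and 69.4 ± 4.65. The part of other cell types in the results below was not tested.

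Cells make cholesterol from acetyl-CoA through the mevalonate pathway and make fatty acids from the same precursor. The SREBP transcription factors, encoded by Srebf1 and Srebf2, drive both pathways: SCAP carries them out of the endoplasmic reticulum when sterol is scarce, and INSIG proteins hold SCAP back when sterol is plentiful. SREBPs bind sterol regulatory elements in promoters and work with the CCAAT-box factor NF-Y and the GC-box factor Sp1. The proximal tubule burns fatty acids as its main fuel, so synthesis is not its best known lipid activity.

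Promoter sequences were searched for the strings of these 3 kinds of factor. The string TCACNCCAC, a sterol regulatory element, was searched on both strands from 250 bases before to 50 bases after the start. It occurred in 2 of the 32 members with a tested promoter region (6.25%), Hmgcs1 and Fasn, against 1.20% of the 13203 coding genes with a tested promoter region. The windows below, from GRCm38, show these matches and 2 that differ from the string at 1 position. Capitals mark the matched bases.
Hmgcs1 element, chr13:119690204-119690232, plus strand: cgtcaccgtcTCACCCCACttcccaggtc
Fasn element, chr11:120824237-120824265, minus strand: cgcgcgggcaTCACCCCACcggcggcggc
Srebf2 element, chr15:82147097-82147125, plus strand: tgacgcaccaTCACCCCATgagccgcttc
Hsd17b7 element, chr1:169969304-169969332, minus strand: tcggcctatcTCACCTCACccggtctggg

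The Hmgcs1 match begins at base −232, counted from the start, and lies outside annotated exons. The Fasn match begins at base −160, in sequence annotated as a Fasn exon. When 1 mismatch was allowed, 14 of 32 members held a match (43.75%), as did 24.8% of all tested coding promoters. That looser search was added after the exact matches had been seen. A match is a description of letters, not a bound site.

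CCAAT boxes were more widespread. The string CCAAT occurred in 24 of 32 member windows (75%) and in 37.7% of all tested coding promoters, with a share of 16 of 18 (88.9%) for sterol synthesis, 2 of 5 for regulators and 3 of 5 for fatty acid synthesis. The GC box GGGCGG occurred in 30 of 32 members (93.75%) and in 66.4% of all tested coding promoters. No string searched contains another. Mvk had 5 CCAAT boxes in its window, the most of any member. Elovl6 had none of the 3 strings, nor had Scd2, which is not among the 32. The 150 bases before the start are shown for 3 sterol genes with several boxes and for Scd1, whose promoter is described below. Capitals mark CCAAT or its reverse complement ATTGG.
Hmgcs1 upstream, chr13:119690296-119690445, plus strand: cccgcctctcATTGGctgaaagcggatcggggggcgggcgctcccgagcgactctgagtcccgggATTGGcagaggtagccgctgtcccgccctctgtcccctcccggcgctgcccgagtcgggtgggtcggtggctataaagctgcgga
Mvk upstream, chr5:114444119-114444268, plus strand: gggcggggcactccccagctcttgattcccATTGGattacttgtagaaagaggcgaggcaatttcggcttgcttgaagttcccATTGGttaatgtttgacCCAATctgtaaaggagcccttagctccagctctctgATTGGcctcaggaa
Hsd17b7 upstream, chr1:169969242-169969391, minus strand: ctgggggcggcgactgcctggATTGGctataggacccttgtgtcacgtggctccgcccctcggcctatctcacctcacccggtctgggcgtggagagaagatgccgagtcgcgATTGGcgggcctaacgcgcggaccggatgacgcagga
Scd1 upstream, chr19:44407710-44407859, minus strand: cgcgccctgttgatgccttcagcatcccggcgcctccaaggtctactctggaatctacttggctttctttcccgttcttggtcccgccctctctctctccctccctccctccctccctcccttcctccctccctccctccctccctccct

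In the Mvk sequence, 4 of its boxes fall in the printed bases. The printed Scd1 bases hold no CCAAT box and end in a run of pyrimidines. The Scd1 window does hold 1 CCAAT box, which lies outside the printed bases. Mvk shares its promoter region with Mmab on the other strand, so the boxes belong to both genes.

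**Figure D1:**
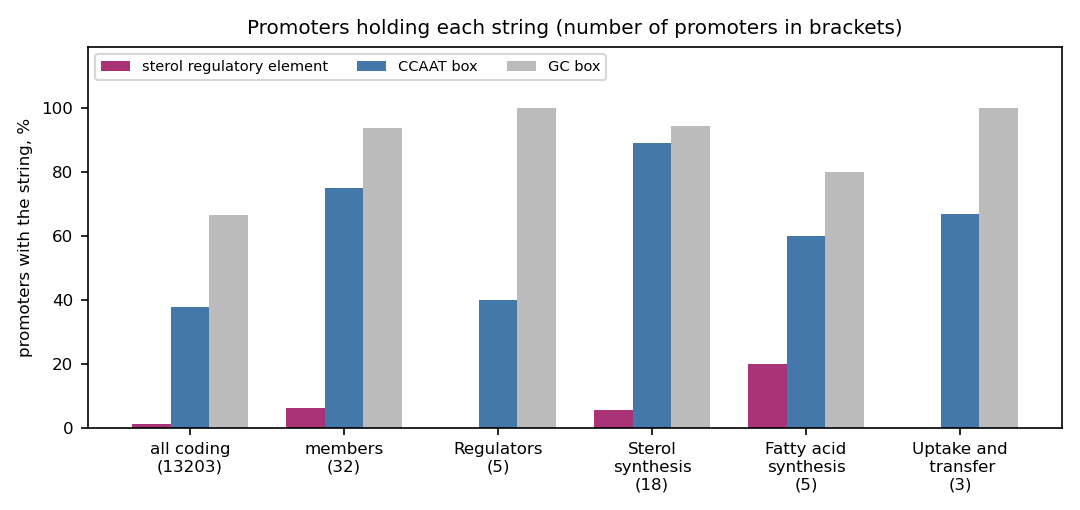
Share of promoter windows (percent, vertical axis) holding a sterol regulatory element, a CCAAT box or a GC box, for all tested coding promoters, for the members and for 4 branches, with the number of promoters in brackets. CCAAT boxes are in 88.9% of sterol synthesis promoters and 37.7% of all coding promoters.

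Promoters of most of the sterol enzymes were among the strongest peaks in these tubules. Of the 36 members, 33 had a promoter region, with its strongest summit within 1 kb of a basic GENCODE start, as had 13795 of all coding genes. Of these 33, 32 were in at least 3 lists and were tested, and each of the 32 was in all 6 lists. The median rank was 95.9 for the tested members and 86.4 for all tested coding promoters. Ranks above 95 were held by 18 of 32 members (56.25%), 14 of them among the 18 sterol enzymes, against 23.2% of all tested coding promoters. A high rank was thus usual for the sterol enzymes, and it was present in both groups of libraries.

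Msmo1, which acts in the removal of methyl groups from the sterol nucleus, had the highest mean rank of the members. Its promoter (chr8:64733098-64733994, summit in a UTR exon of Msmo1) ranked 99.98, 99.99 and 99.84 in Sham 1 to 3 and 99.68, 99.54 and 99.99 in UNx 1 to 3. In the authors' deposited lists its fold enrichment was 21.3, 20.2 and 18.5 in Sham and 18.8, 18.2 and 21.9 in UNx. The next were Npc2 and Npc1, the pair that moves cholesterol out of lysosomes. Npc2 (chr12:84772604-84773577) had mean ranks of 99.79 ± 0.275 (SD, n = 3) in Sham and 99.68 ± 0.121 (n = 3) in UNx, and its region also serves Isca2 on the other strand. Npc1 (chr18:12235887-12237257) had 99.64 ± 0.173 and 99.63 ± 0.352. Idi1, Acly, Fdft1 and Fdps followed with means over all 6 libraries of 99.52, 99.34, 99.33 and 99.33. These 4 means differ by less than the SD of 0.544 between the UNx libraries of Fdft1.

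**Figure D2:**
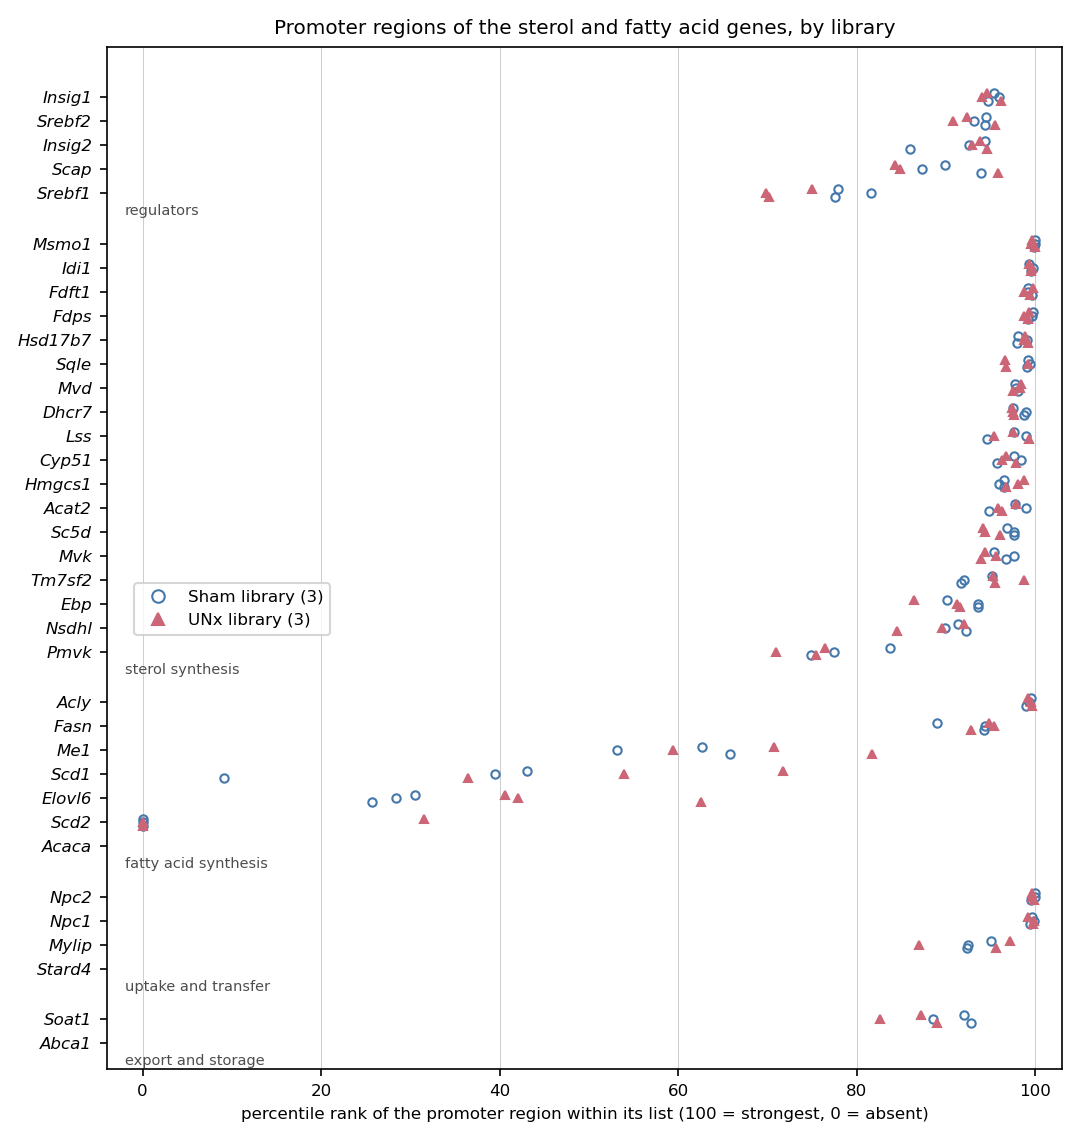
Percentile rank of the promoter region within its list (horizontal axis, 100 the strongest, 0 absent) for each member, by branch, with 3 Sham libraries as open circles and 3 UNx libraries as triangles. Most sterol enzymes cluster near 100 in both groups, and Pmvk is the lowest of them. Elovl6 and Scd1 lie far lower, and Acaca, Stard4 and Abca1 have no point.

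No member promoter, taken as 1 region per gene at a basic start, passed the test for a difference between the operations. With limma and Benjamini-Hochberg adjustment over 74781 tested regions, 589 regions in the genome passed (0.788%), and 51 of 12065 coding promoter regions passed (0.423%). The count of members with an unadjusted p under 0.05 was 1 of 32, against 13.5% of coding promoter regions. With the best peak of any summit within 1 kb per gene, it was 5 of 33 (15.2%: Sqle, Sc5d, Tm7sf2, Elovl6 and Scd1), against 14% of coding genes. After UNx, 11 member promoters ranked higher and 21 lower, with a median difference (UNx minus Sham) of −0.16 percentile points. Single libraries moved this median: it was −0.043 without UNx 2, −0.0597 without Sham 2, −0.351 without UNx 3 and −0.404 without Sham 3. Over all coding genes 6218 ranked higher and 6984 lower, with a median of −0.19. Libraries of the 2 groups did not overlap for 3 members with UNx above Sham, Hmgcs1, Tm7sf2 and Elovl6, and for 2 with UNx below, Srebf1 and Sc5d. These are 9.375% and 6.25% of the 32, and the shares over coding promoter regions were 9.43% and 10.7%.

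Among the regulators, 1 promoter ranked higher and 4 lower after UNx, with a median difference of −1.07. The median was −0.0246 without UNx 2, with 2 of 5 higher, −0.246 without UNx 1, −0.702 without Sham 3 and −2.38 without UNx 3. Srebf1 had the largest difference of the 5. Its promoter (chr11:60220187-60220907) ranked 77.9, 81.6 and 77.6 in Sham and 75.0, 69.8 and 70.2 in UNx. Every UNx library lay below every Sham library, and the difference of −7.31 ± 4.39 (SE) had an adjusted p of 0.387 in limma. Srebf1 has further starts in the comprehensive annotation. One of these, at position 60210465 in an intron of the basic transcript, lies in a region (chr11:60210232-60210799). That region ranked 92.3, 90.9 and 84.8 in Sham and 82.2, 77.9 and 83.7 in UNx. This internal region was also lower in every UNx library, with a difference of −8.08 ± 2.99 (SE) and an adjusted p of 0.160 in limma. Another further start, at position 60222581, lies in a region (chr11:60222392-60223381) that ranked 69.8, 73.8 and 68.0 in Sham and 74.0, 68.2 and 80.3 in UNx, with overlapping groups and an adjusted p of 0.743 in limma. Among all deposited summits, the strongest summit within 1 kb of that start had percentiles of 80.9, 77.8 and 79.8 in Sham and 82.6, 81.2 and 88.0 in UNx, higher in every UNx library. These percentiles come from full lists of unequal length, 105829 summits in Sham 2 to 158036 in UNx 2. They are thus not comparable with the ranks among equal numbers of peaks.

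The other 4 regulators overlapped between groups. The Srebf2 promoter (chr15:82146726-82148101) ranked 94.5, 93.2 and 94.3 in Sham and 92.4, 90.8 and 95.5 in UNx. Scap, the sterol sensor that escorts SREBPs (chr9:110332987-110334101), ranked 89.9, 87.4 and 93.9 in Sham and 84.3, 84.9 and 95.8 in UNx. In both genes, as in Insig1 and Insig2 below, UNx 3 was the highest of the 6 libraries. Insig1 (chr5:28070621-28072347) ranked 95.4, 95.9 and 94.7 in Sham and 94.6, 94.1 and 96.1 in UNx. Insig2 (chr1:121327112-121328473) ranked 94.4, 92.6 and 86.0 in Sham and 93.9, 92.96 and 94.6 in UNx. Insig2 was the regulator with a positive difference, 2.82, and its lowest value was in Sham 3.

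In sterol synthesis, 5 promoters ranked higher and 13 lower, with a median difference of −0.36. The median was −0.136 without UNx 2, −0.139 without Sham 2, −0.233 without Sham 1 and −0.799 without Sham 3. Differences ran from −4.41 for Pmvk, phosphomevalonate kinase, to 3.52 for Tm7sf2, a sterol reductase. Tm7sf2 (chr19:6066983-6068401, summit in a UTR exon of Vps51) ranked 95.2, 92.1 and 91.7 in Sham and 95.3, 98.7 and 95.5 in UNx. The groups are separated only by the small step from Sham 1 to UNx 1, and the adjusted p was 0.275 in limma (difference 3.52 ± 1.70 SE). Hmgcs1, which makes the precursor of mevalonate (chr13:119689912-119691064), ranked 96.5, 95.9 and 96.6 in Sham and 98.8, 98.0 and 96.8 in UNx. Its difference of 1.54 ± 1.36 (SE) had an adjusted p of 0.578 in limma.

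Sc5d, a late desaturase of the pathway (chr9:42263675-42264671), had the opposite sign. It ranked 96.9, 97.7 and 97.6 in Sham and 94.2, 94.4 and 96.0 in UNx, a difference of −2.54 ± 1.44 (SE) with an adjusted p of 0.356 in limma. Sqle, squalene epoxidase (chr15:59314481-59315528), ranked 99.1, 99.5 and 99.1 in Sham and 96.6, 99.2 and 96.8 in UNx. UNx 2 of Sqle lay inside the Sham values, so its groups overlap. The remaining 14 sterol promoters had differences between −4.41 and 0.54 and overlapping groups. A second region of Dhcr7, beside an upstream start that also serves Nadsyn1 (chr7:143822311-143823307), ranked 96.4, 94.9 and 95.9 in Sham and 93.5, 94.8 and 90.5 in UNx, with an adjusted p of 0.388 in limma. The main Dhcr7 region ranked 97.5, 99.0 and 98.8 in Sham and 97.4, 97.5 and 97.6 in UNx. Mvd had a second, weak region found in UNx 3 alone.

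**Figure D3:**
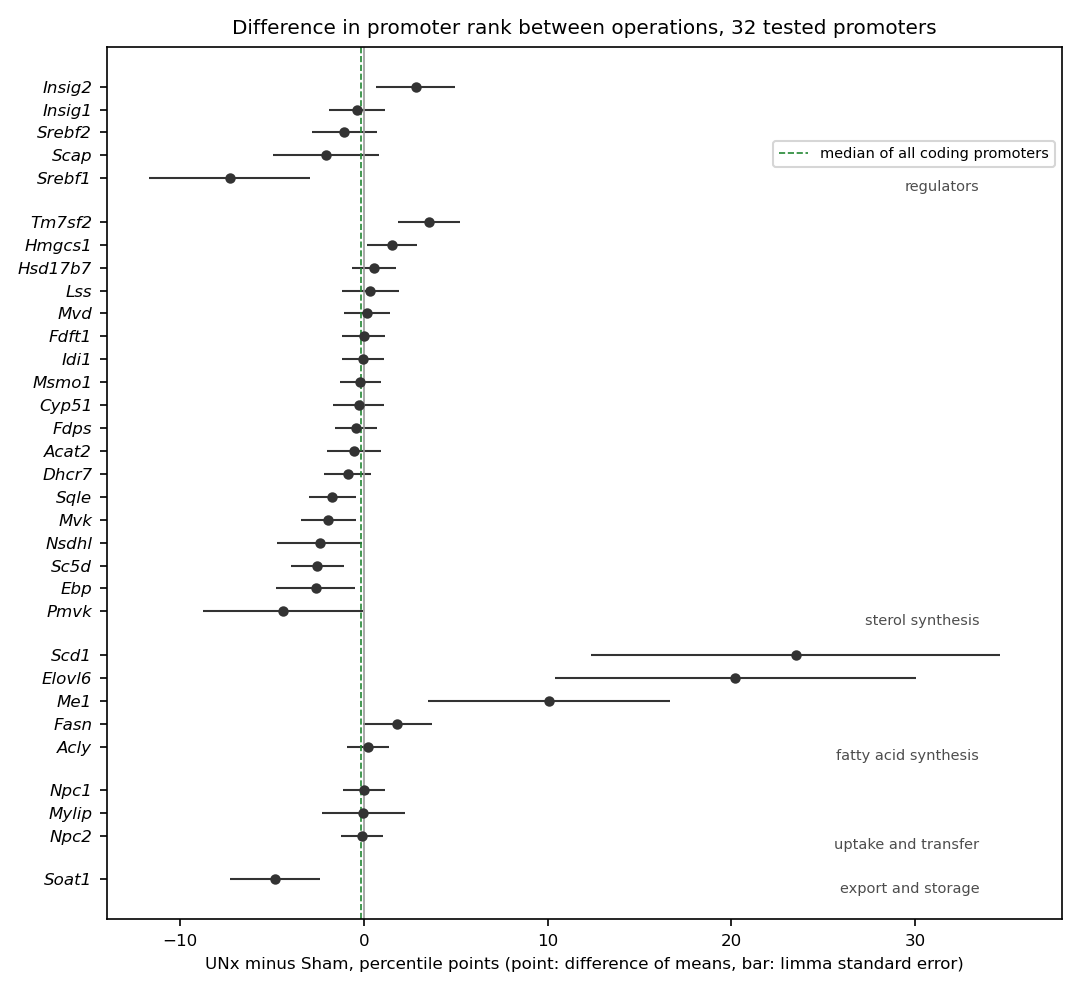
Difference in mean promoter rank (UNx minus Sham, percentile points, horizontal axis) with its limma standard error for the 32 tested member promoters, by branch, with the median of all coding promoters dashed. Most points lie near 0, Srebf1 is lowest at −7.31 and Scd1 is highest at 23.5.

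Fatty acid synthesis divided into strong and weak promoters. Acly and Fasn, which make acetyl-CoA and join it into palmitate, had mean ranks of 99.34 and 93.4 over the 6 libraries. Me1, Scd1 and Elovl6, for NADPH supply, desaturation and chain elongation, had means of 65.6, 42.3 and 38.3 and were the 3 lowest of the tested members. Of all tested coding promoters, 24.4% had a mean rank under 70. All 5 tested promoters of the branch ranked higher after UNx, with a median difference of 10.06, but none passed the test. The smallest difference was that of Acly, 0.21 ± 1.15 (SE). With GC-corrected ranks 4 of 5 ranked higher. The median was 4.52 without UNx 3, 6.35 without Sham 2 and 15.7 without UNx 2. With starts of the comprehensive annotation it was 1.81 over 7 genes, and with a promoter window of 2.5 kb it was 0.21.

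Scd1, which puts the double bond into stearate, had the smallest p among the 32 promoters taken as 1 region per gene. Its region (chr19:44407264-44408117, UTR exon) ranked 43.1, 39.5 and 9.08 in Sham and 71.8, 53.9 and 36.4 in UNx. The lowest UNx library lay below the highest 2 Sham libraries. The difference of 23.5 ± 11.1 (SE) had an adjusted p of 0.267 in limma, and was 12.8 without Sham 3 and 14.6 without UNx 1. In the authors' deposited lists the fold enrichment at this peak was 8.67, 6.02 and 5.16 in Sham and 13.4, 10.6 and 8.63 in UNx. A second Scd1 region, with its summit at −651 bp from the start, was present in Sham 1 and Sham 2 only, at ranks of 33.6 and 12.1, and was not tested.

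At Elovl6, which lengthens palmitate, the groups were apart at both regions near the start. The region at the start (chr3:129532068-129532643, UTR exon) ranked 30.6, 28.4 and 25.7 in Sham and 40.7, 42.1 and 62.6 in UNx, a difference of 20.2 ± 9.83 (SE) with an adjusted p of 0.280 in limma. The difference was 13.2 without UNx 3 and 10.6 with ranking by fold enrichment. The second region, with its summit 809 bp downstream in an intron (chr3:129532721-129533302), was absent from Sham 1 and Sham 2 and ranked 6.602 in Sham 3. It ranked 31.1, 24.2 and 38.2 in UNx, so that all UNx libraries held it and were higher. It met the filter of at least 3 lists through the UNx libraries, so its difference of 29.0 ± 9.64 (SE), with an adjusted p of 0.126 in limma, is given as a description. With no such filter the adjusted p was 0.207 in limma. Neither region passed the threshold under any alternative in which it gave a value. Me1, malic enzyme (chr9:86695193-86696333), ranked 62.7, 53.2 and 65.9 in Sham and 70.8, 59.4 and 81.7 in UNx, with overlapping groups and an adjusted p of 0.431 in limma. Its difference of 10.06 was 6.35 without Sham 2, 4.52 without UNx 3 and 15.7 without UNx 2.

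Fasn (chr11:120823250-120824965), with the element shown above, ranked 89.0, 94.3 and 94.2 in Sham and 94.8, 95.4 and 92.8 in UNx. Scd2, a close relative of Scd1, had a promoter peak among the strongest 77355 in UNx 1 only, at a rank of 31.5, and was not tested. In the full deposited lists a Scd2 summit lay within 1 kb of the start in 4 of 6 libraries, absent from Sham 2 and UNx 3. Acaca, the carboxylase that commits acetyl-CoA to fatty acids, had no summit within 1 kb of either basic start. Its strongest region (chr11:84179123-84180539) lies in an intron 6419 bp from a basic start and holds a start of the comprehensive annotation at position 84179831. This region ranked 99.26, 99.01 and 99.77 in Sham and 99.52, 99.39 and 99.76 in UNx. Acaca thus had a region as strong as those of most sterol enzymes, at a start that the basic annotation leaves out. Another such start, at position 84129672, had a summit within 1 kb in all 6 deposited lists. Among all deposited summits, the strongest there had percentiles of 91.9, 92.8 and 94.2 in Sham and 86.3, 76.4 and 93.8 in UNx, with overlapping groups. These too are percentiles in full lists of unequal length.

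In sterol uptake and transfer, 3 of 4 genes had a promoter region, and their differences were −0.11 for Npc2, −0.01 for Npc1 and −0.03 for Mylip. Mylip, the ligase that marks the LDL receptor for breakdown (chr13:45389344-45390845), ranked 95.02, 92.5 and 92.4 in Sham and 97.1, 87.0 and 95.6 in UNx. A second Mylip region, 790 bp past another start, ranked 54.2, 62.0 and 59.3 in Sham and 64.3, 69.6 and 56.2 in UNx. Another region, 328 bp past that start, was in UNx 2 alone. Stard4, a cytosolic sterol carrier, had no deposited summit within 1 kb of its start in any list, although 6 distal regions lay around it.

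In export and storage, Soat1, which esterifies cholesterol, was the single gene tested. Its promoter (chr1:156473809-156474641) ranked 92.1, 88.5 and 92.8 in Sham and 87.2, 82.6 and 89.0 in UNx. UNx 3 lay just above Sham 2, and the difference of −4.86 ± 2.44 (SE) had an adjusted p of 0.296 in limma and was −3.03 without UNx 2. Abca1, the cholesterol exporter, had its strongest summit just outside the window, but a weaker summit 99 to 117 bp before the start was in all 6 deposited lists. Taken per gene with any summit within 1 kb, the Abca1 interval ranked 87.6, 89.1 and 93.04 in Sham and 75.6, 88.6 and 90.4 in UNx, with an adjusted p of 0.557 in limma. Counting any deposited summit, 33 members had a promoter peak in all 6 lists, 1 in some lists and 2 in none.

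Beyond the promoters, 269 regions had their strongest summit within 50 kb of a member's start and more than 1 kb from any coding start of the basic annotation. Nearness does not assign a target: for 170 of them the member's start was the nearest coding start. Tested were 207, of which 150 were in all 6 lists. After UNx 98 ranked higher and 109 lower, with a median difference of −0.44, and over all 42346 regions 1 to 50 kb from a coding start the median was 0.23. The groups were apart with UNx above in 24 member regions and with UNx below in 24, or 11.6% each, against 12.7% and 11.5% of all such regions. An unadjusted p under 0.05 was found for 40 (19.3%), against 19.5%. The test was passed by 2 of 207 (0.966%), against 0.845% of all such regions, a share near the background.

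**Figure D4:**
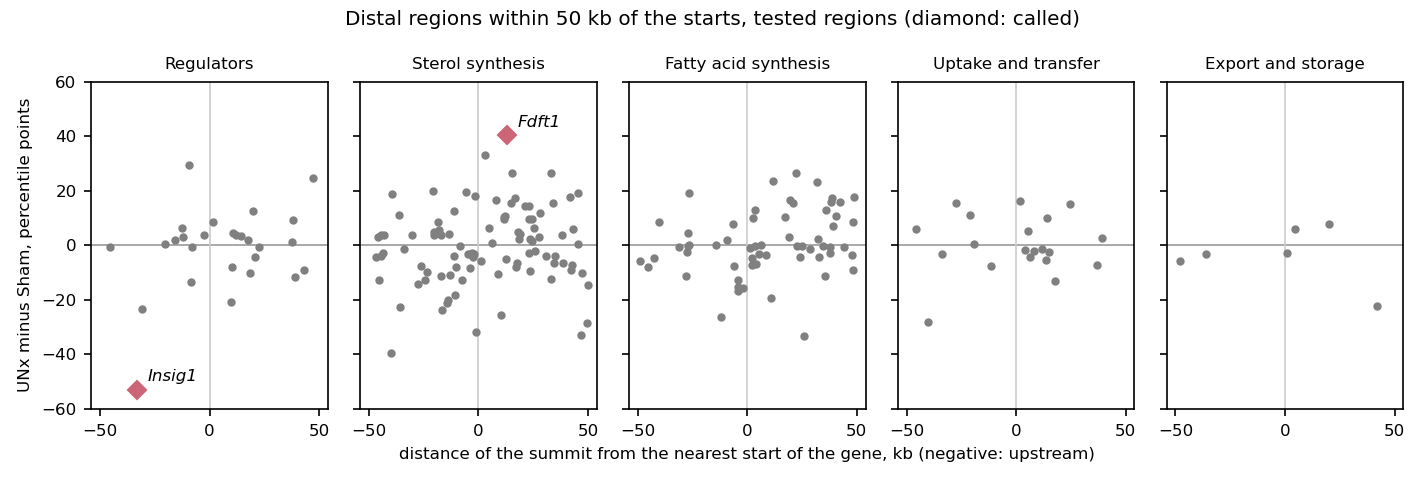
Difference in rank (UNx minus Sham, percentile points, vertical axis) against distance from the nearest start of the gene (kb, horizontal axis, negative upstream) for the 207 tested distal regions, in 5 panels by branch. Diamonds are the 2 regions past the threshold, near Insig1 at −52.9 and in Fdft1 at 40.3.

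The first of the 2 lies 32976 bp upstream of Insig1, in an intron of the gene Gm26608 (chr5:28038142-28038706), with Insig1 as the nearest coding start. It fell in rank after UNx. It ranked 68.4, 54.1 and 54.4 in Sham and 9.78, 7.07 and 1.38 in UNx, with a wide gap between the groups. The difference was −52.9 ± 10.2 (SE), with an adjusted p of 0.0309 in limma. In the authors' deposited lists its fold enrichment was 12.6, 7.68 and 9.47 in Sham and 4.82, 5.21 and 4.62 in UNx, so a weak peak remained in every UNx library. The direction held in all 16 alternatives that gave a value. With groups that do not overlap, leaving out a library could not change it. Nor could the replicate number as a block, the filter on lists or the variance options, which leave the difference as it is. Only 2 of the 16 kept an adjusted p under 0.05, and leaving out any single library ended the call (adjusted p 0.0572 to 0.141 in limma).

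The second lies in an intron of Fdft1, which encodes squalene synthase, 12918 bp inside the gene (chr14:63164205-63165148). The comprehensive annotation has a further Fdft1 start, at position 63165036, inside this region. It rose in rank after UNx. It ranked 32.6, 49.7 and 25.5 in Sham and 76.3, 66.3 and 85.9 in UNx, and the groups did not overlap. The difference was 40.3 ± 8.06 (SE), with an adjusted p of 0.0352 in limma. Its deposited fold enrichment, in the authors' lists, was 4.37, 5.17 and 3.93 in Sham and 6.93, 6.63 and 8.90 in UNx. The direction again held in 16 of 16 alternatives, and again the same ones could not change it. Of the 16, 2 kept the call, and leaving out any single library ended it (adjusted p 0.0572 to 0.148 in limma). The Fdft1 promoter itself had a mean rank of 99.34 ± 0.256 (SD, n = 3) in Sham and 99.32 ± 0.544 (n = 3) in UNx.

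The 201 bases centred on each summit, from GRCm38 and outside exons of the basic annotation, are given below. Exons of the comprehensive annotation were not searched. The bases are in lower case throughout, because none of the 5 strings searched on both strands was found in them.
Insig1 distal summit, chr5:28038287-28038487, plus strand: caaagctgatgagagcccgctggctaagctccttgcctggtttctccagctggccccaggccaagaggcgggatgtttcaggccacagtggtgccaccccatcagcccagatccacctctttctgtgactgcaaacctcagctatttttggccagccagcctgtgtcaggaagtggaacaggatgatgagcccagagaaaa
Fdft1 distal summit, chr14:63164775-63164975, plus strand: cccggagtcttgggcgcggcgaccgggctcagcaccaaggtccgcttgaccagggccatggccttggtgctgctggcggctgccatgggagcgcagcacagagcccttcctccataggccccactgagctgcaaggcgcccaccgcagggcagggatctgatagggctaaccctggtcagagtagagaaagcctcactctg

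The strings were AGGTCA (nuclear receptors), TGANTCA (AP-1), GTTAAT (HNF1), CCAAT and TCACNCCAC, found around 21.9%, 7.94%, 12.4%, 20.97% and 0.796% of the 42346 summits. The absence of these letters says nothing of which factors bind. The sterol regulatory element string occurred around 5 of the 207 member summits (2.42%).

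**Figure D5:**
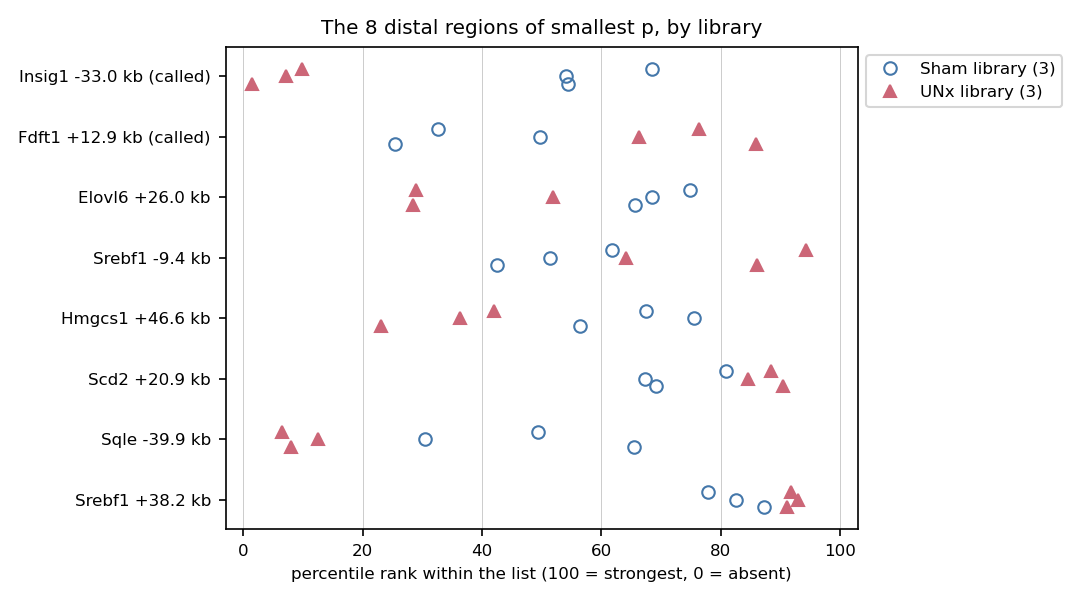
Percentile rank within the list (horizontal axis, 0 absent) in each library for the 8 distal regions of smallest p, labelled by gene and distance from its start, with Sham as open circles and UNx as triangles. The groups are apart in all 8 regions, 4 higher and 4 lower after UNx, and the 2 called regions are at the top.

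The other 6 distal regions of smallest p missed the threshold. In Elovl6, an intronic region 26003 bp past the start (chr3:129558174-129558616) ranked 74.9, 68.5 and 65.6 in Sham and 28.9, 51.9 and 28.4 in UNx, with an adjusted p of 0.0592 in limma. A neighbour 22360 bp past the start (chr3:129554379-129554986) ranked 38.02, 33.1 and 34.8 in Sham and 53.6, 56.1 and 76.0 in UNx, with an adjusted p of 0.118 in limma. Both signs were thus seen among introns of Elovl6. Elovl6 had 17 distal regions, all with Elovl6 as the nearest coding start, of which 13 were tested, 8 higher and 5 lower after UNx.

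Srebf1 had 2 of the 6. A region 9423 bp upstream, in a UTR exon of Tom1l2 (chr11:60229688-60230508), ranked 61.9, 51.4 and 42.5 in Sham and 94.3, 64.1 and 86.1 in UNx (adjusted p 0.0607 in limma). One in an intron of Rai1 (chr11:60182144-60182942), nearer to the Rai1 start, ranked 77.8, 82.6 and 87.3 in Sham and 91.8, 93.03 and 91.04 in UNx (adjusted p 0.0909 in limma). Both were higher in every UNx library. Of its 10 tested distal regions 6 ranked higher and 4 lower.

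A region 39850 bp upstream of Sqle (chr15:59274990-59275397, intergenic) ranked 49.4, 30.4 and 65.4 in Sham and 6.55, 12.5 and 8.03 in UNx (adjusted p 0.0886 in limma). A region 46650 bp from Hmgcs1, in an intron of Nim1k and nearer to its start (chr13:119736960-119737430), ranked 67.5, 75.5 and 56.4 in Sham and 42.0, 36.4 and 23.0 in UNx (adjusted p 0.0678 in limma). A region 20916 bp from Scd2 but nearer to Scd4 (chr19:44314209-44315411) ranked 80.9, 67.3 and 69.2 in Sham and 88.4, 84.6 and 90.5 in UNx (adjusted p 0.0772 in limma). The regions near Sqle and Hmgcs1 were lower in every UNx library than in any Sham library, and the region near Scd2 was higher.

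By branch, the tested distal regions split 15 higher and 12 lower for regulators, 46 and 48 for sterol synthesis, 26 and 34 for fatty acid synthesis, 9 and 11 for uptake and transfer, and 2 and 4 for export and storage. The median differences were 1.26, −0.82, −0.43, −1.59 and −3.05 in that order. Each branch thus had distal regions of both signs.

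The wider pathway was examined in the same way. Of 36 further genes of sterol and lipid handling that are not members, 33 had a tested promoter region, 14 ranked higher and 19 lower after UNx, and none passed the test. An unadjusted p under 0.05 was found for 6 of 33 (18.2%), beside 13.2% of the 13203 coding genes tested in the same way, 1 region per gene. Among the 9 sterol genes of this list 8 ranked lower, beside 52.9% of those coding genes, and among the 12 tested fatty acid genes 6 did. Mbtps1, the protease that cuts SREBPs in the Golgi, had mean ranks of 92.9 ± 2.38 (SD, n = 3) in Sham and 85.8 ± 5.34 (n = 3) in UNx (adjusted p 0.161 in limma). Lpin1, a phosphatidate phosphatase, had 68.7 ± 5.09 and 48.9 ± 9.91 (adjusted p 0.151 in limma).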

How the data were processed

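ATAC-seq peak lists of 6 mouse libraries were used. Per the submitters' processing notes, the tools included cutadapt 3.4, Bowtie, SAMtools, Picard and MACS2 2.2.7.1, with build mm10. Settings and the filter on the lists are not given in the sources used here. The authors deposited a fold enrichment (ratio) for each summit, beside its position, its score for display and 2 significance values on the −log10 scale (p and q). They hold no read counts, so depth is unknown and no interval that needs it is given.

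Each distinct interval with its strongest summit was 1 peak. The 77355 strongest peaks of each list were ranked by −log10 q, and intervals that shared 1 bp or more were joined, which gave 99359 regions. The 74781 regions in at least 3 of 6 lists were tested in limma 3.58.1 (R 4.3.3, eBayes with trend and robust options), with two-sided p-values adjusted by Benjamini-Hochberg over all tested regions and a threshold of 0.05. The step was also run on simulated ranks with independent normal noise. That run was a check of the code and says nothing of the calls in these libraries. Starts, exons and sequence came from GENCODE M21 (basic) and GRCm38. Distances and string searches were computed from these files.

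The members, branches and gene lists were chosen with earlier results of these data known. Named with values were regions past the threshold, the 8 promoters and 8 distal regions of smallest p, the 3 members of highest and lowest rank, the regulators, members without a promoter region or with several, and the 3 further pathway genes of smallest p, of which 1 is not reported here. The second Elovl6 intronic neighbour, the 2 Srebf1 regions at further starts, Fasn, Hsd17b7 and the marker promoters Slc12a1 and Umod were named after their values were seen. Starts of the comprehensive annotation, the search with 1 mismatch and the strings searched at distal summits were also chosen after seeing the data.

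Alternatives were all deposited peaks, the 20000 strongest, a −log10 q of at least 5, ranking by fold enrichment, a reciprocal overlap of 50%, normal scores, GC-corrected ranks, no filter on lists, no trend or robust variance, the replicate number as a block, other windows, any summit within 1 kb per gene, and each library left out. Replicate numbers were not taken as pairs.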

Additional observations from a re-analysis of the deposited data

How the results depend on the processing

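No member promoter, counted as 1 region per gene, passed the threshold in any of the 20 alternatives run. With starts of the comprehensive annotation the Fdft1 region past the threshold also lies at a start, but it is not the strongest region of that gene. The number of regions passing over the whole genome, 589, varied: 22 with all deposited peaks, 2 with the 20000 strongest, 180 with a −log10 q of at least 5, 3 with ranking by fold enrichment, 76 with a reciprocal overlap of 50%, 946 with normal scores, 2 with GC-corrected ranks, 2 when regions in fewer lists were kept, and 4 to 76 when a library was left out. Member distal regions passing, 2 in the report, numbered 0 with all deposited peaks, the 20000 strongest, ranking by fold enrichment, the reciprocal overlap, GC-corrected ranks, regions in fewer lists kept, and each library left out (0 to 0). They numbered 1 with a −log10 q of at least 5, with no trend or robust variance and with a window of 20 kb, 4 with normal scores and 5 with a window of 100 kb. The cause was not tested.

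The median difference of the member promoters was −1.088 with the 20000 strongest peaks, −1.494 with fold enrichment and −1.311 with GC-corrected ranks. For sterol synthesis it was −1.397, −1.715 and −1.409 in the same order. For regulators it was −4.14 and for export and storage −18.78 with the 20000 strongest peaks. For uptake and transfer it was −2.69 with fold enrichment and −1.296 with GC-corrected ranks, and −0.2687 to −0.01099 when a library was left out. For fatty acid synthesis it was 0.2086 with a promoter window of 2.5 kb, over 7 genes. No median changed sign except that of uptake and transfer, which was 0.06457 with normal scores. The regions of lowest GC content had mean percentiles of 37.3 to 39.9 in Sham and 34.3 to 39.7 in UNx, which overlap. With the 20000 strongest peaks the difference was −18.78 for Soat1, −17.65 for Srebf1, −9.812 for Sc5d, −6.648 for Sqle and 13.61 for Tm7sf2, and with fold enrichment it was −7.264 for Sqle.

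Same-numbered libraries did not deviate together (correlations 0.00819, −0.1002 and −0.04962), and the numbers were not treated as pairs. With the replicate block 56 regions passed in all and 0 member distal regions did. With the replicate block and GC-corrected ranks 0 and 0 passed. The block cannot change a difference here, because both groups hold the same replicate numbers. The medians were therefore those with GC-corrected ranks alone: −1.311 for the members, −1.409 for sterol synthesis and −1.296 for uptake and transfer.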
